A study of Mus musculus with 10 samples.

Results

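The cytosolic DNA sensing pathway was followed through 9 genes chosen by name, out of the 55359 genes in the deposited table. They are the sensors Cgas, Aim2 and Ifi204, the adaptor Sting1, the kinases Tbk1 and Ikbke, and the enzymes Trex1, Samhd1 and Dnase2a, which remove DNA or its building blocks. The question was how their transcripts differed in bone marrow cells between 5 libraries from Dhx9f/f mice, called WT, and 5 from Dhx9f/f;MX1 mice, called cKO, whose genotype label reads Dhx9 knock down. All mice carried the floxed Dhx9 allele, and the cells were lineage negative (Lin-) cells, the fraction left after antibody depletion of mature blood cells. Age, strain background and the sex of each animal were not stated for these libraries, and the methods of the study say only that sex was randomized. In the cKO mice, Cre was under control of Mx1, a promoter that responds to interferon, and poly(I:C) was injected to switch it on. Poly(I:C) mimics double-stranded RNA and itself raises interferon. The methods time the analysis of mice from the first poly(I:C) dose in general, but name the injection for the Cre carriers alone and do not speak of the WT mice of these libraries. If the WT mice were not injected, the effects of the injection and of the genotype cannot be told apart.

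In this pathway, cGAS binds DNA in the cytosol and makes the cyclic dinucleotide cGAMP, which binds STING on the endoplasmic reticulum. STING then recruits TBK1 and its relative IKKε (encoded by Ikbke), which phosphorylate IRF3 and so switch on type I interferon genes. AIM2 binds DNA as well but assembles an inflammasome with ASC and caspase-1, whereas nucleases such as TREX1 and DNase II keep self DNA below the level at which the sensors fire. Several of these genes are themselves interferon-inducible, and several are known for high expression in macrophages and dendritic cells.

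Of the 9 genes, 4 were lower in the libraries labelled cKO by the call rule used here, an adjusted p under 0.05 with a change of at least 2-fold. These were Sting1, Ifi204, Ikbke and Aim2. No member was called higher. The remaining 5 were Samhd1, which fell by less than 2-fold, Cgas, Tbk1 and Dnase2a, whose groups overlapped, and Trex1, which was listed at 0 everywhere. Thus 4 of the 8 members that passed the expression filter were called lower, beside 16.8% of all 18742 genes tested, and none was called higher, beside 4.6%. By adjusted p alone, 5 of 8 were lower, beside 28.3% of all genes. In the same 5, every cKO library lay below every WT library, beside 21.6% of all genes. The median log2 fold change of the 8 was -1.11, against -0.11 for all genes tested.

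Some features of the libraries touch every comparison. Fragments per library, estimated from the smallest steps in the values, ran from 15037590 to 18711170 in WT and from 13837000 to 17190600 in cKO. Dhx9, the targeted gene, was at 65.43 to 72.42 FPKM in WT and at 130.82 to 156.49 FPKM in the libraries labelled cKO, higher in 5 of 5 (2.01-fold in means, SE of the log2 fold change 0.0654, limma adjusted p = 1.39e-05). This goes against the label. A gene-level value also counts exons outside any deleted part, and no result could be recomputed without these libraries because all 5 behaved alike. Xist was at 99.19 to 127.76 FPKM in WT 3, 4 and 5 and at 0.09 FPKM or less in the other 7 libraries. Ddx3y, on the Y chromosome, was at 0 to 0.05 FPKM in WT 3 to 5 and at 19.66 to 38.53 FPKM in the others, so sex-linked transcripts differed between the groups. With WT 3 to 5 left out, 4 members were still called lower. The marker lists moved with the groups too. Of the 15 monocyte and macrophage markers, 14 were called lower in cKO, as were 7 of 10 dendritic cell, 5 of 12 neutrophil, 5 of 8 B lymphoid, 5 of 8 T and NK, 8 of 8 megakaryocyte, 6 of 7 mast cell and basophil and 6 of 8 stem and progenitor markers, and 7 of 11 erythroid markers were called higher, beside 16.8% of all genes called lower and 4.6% called higher. No marker was at 0 in all libraries. In bulk RNA, fewer cells of a type and less RNA per cell cannot be told apart.

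Upstream sequence is shown for the DNA sensors because Aim2 and most expressed genes of its family beside it were lower in cKO. Promoter windows from RefSeq (GRCm38.p6, 250 bases before to 50 after each start) were placed on GRCm39, the build of the deposited data, by exact match. They were searched on both strands for the interferon response element core GAAANNGAAA, held by 3.44% of all 32851 windows, and for the PU.1 site GAGGAAGT, held by 3.20%. No matches of the 2 motifs overlapped in the sequences below. Of the 7 members searched (Cgas, Aim2, Tbk1, Ikbke, Trex1, Samhd1 and Dnase2a), 2 held the PU.1 site and 0 held the interferon response element core. Sting1 and Ifi204 were not searched. Aim2 held the PU.1 site from -113 to -106 relative to its RefSeq start, an internal start that lies downstream of the first base of the gene in GENCODE, in chr1:173248037-173248084 on the plus strand. A Trex1 window held the PU.1 site in reverse at its start. The stretch below, like those that follow, runs 5′ to 3′ on the strand of its gene, with the motif in capitals.
Aim2: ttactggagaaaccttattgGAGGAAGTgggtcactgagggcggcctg

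The PYHIN neighbours of Aim2 differed from it in this window. Of 10 other PYHIN genes with a window, 9 held the interferon response element core, all but Ifi209. Ifi207, Ifi208, Ifi211, Ifi203 and Ifi205 are shown as examples. They lie at chr1:173569387-173569436 (minus strand), chr1:173501153-173501202 (plus strand), chr1:173740620-173740669, chr1:173770064-173770113 and chr1:173859426-173859475 (all minus strand). The capitals again mark the motif.
Ifi207: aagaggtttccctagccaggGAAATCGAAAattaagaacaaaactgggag
Ifi208: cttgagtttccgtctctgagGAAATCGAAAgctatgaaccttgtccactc
Ifi211: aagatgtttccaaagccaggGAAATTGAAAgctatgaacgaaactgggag
Ifi203: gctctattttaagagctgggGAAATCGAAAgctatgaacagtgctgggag
Ifi205: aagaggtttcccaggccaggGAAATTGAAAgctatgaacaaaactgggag
These 5 stretches were identical at 50% to 92% of their 50 bases in pairs, Ifi205 and Ifi211 being the most alike. The 50 bases include the motif by which the stretches were chosen, which raises these shares. Among the genes not shown, a stretch of Mndal was the same as that of Ifi203 at every base, and that of Ifi213 the same as that of Ifi208. The 9 matches are therefore not independent of each other. A match is a string of letters in the reference, and no binding was measured here.

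Among the sensors, Cgas (chromosome 9, 78337802 to 78350535, minus strand) encodes the enzyme that makes cGAMP. Its level was 10.96, 11.14, 11.08, 11.42 and 9.89 FPKM in WT 1 to 5, and 10.19, 10.35, 11.19, 9.17 and 8.05 FPKM in cKO 1 to 5. The groups overlapped, with only cKO 4 and cKO 5 below the lowest WT library. The log2 fold change was -0.16 (95% interval -0.37 to 0.05, adjusted p = 0.190; exact permutation p = 0.119, two-sided). Of the exonic bases of Cgas, 34.4% also lie in an antisense gene, Gm68924, and since use of strand in the counting was not given, reads from the 2 genes cannot be told apart there.

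Aim2 (chromosome 1, 173178445 to 173293930, plus strand) encodes the sensor that nucleates the AIM2 inflammasome. Its WT levels were 19.36, 11.54, 10.72, 13.28 and 13.37 FPKM, against 5.37, 3.77, 6.69, 3.83 and 6.75 FPKM in cKO 1 to 5. Every cKO library lay below every WT library, and WT 1 stood above the other WT libraries. The mean was 2.59 times as high in WT (13.7 ± 3.39 against 5.28 ± 1.46 FPKM, SD, n = 5 each), with a log2 fold change of -1.37 (SE 0.209, 95% interval -1.83 to -0.91, adjusted p = 4.56e-04). The exact permutation test gave p = 0.00794, the smallest that 5 against 5 libraries allow, for Aim2 and for each member below whose groups did not overlap.

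Ifi204 (chromosome 1, 173574859 to 173594610, minus strand) is one of the mouse genes compared with human IFI16, a sensor of DNA in the nucleus and cytosol that can act through STING. It was at 3.79, 4.05, 4.41, 4.38 and 4.65 FPKM in WT and at 0.37, 0.26, 2.13, 0.19 and 0.74 FPKM in cKO. The groups did not overlap, and cKO 3 stood well above the other 4 cKO libraries. The log2 fold change was -2.81 (SE 0.473, 95% interval -3.85 to -1.77, adjusted p = 7.83e-04), a 5.77-fold higher mean in WT. The cKO values rested on about 19, 16, 125, 10 and 43 fragments, so counting error alone is sizeable in cKO 1, 2 and 4. How reads that match several PYHIN genes alike were counted was not given, so levels of single PYHIN genes are uncertain.

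Sting1 (chromosome 18, 35866732 to 35873607, minus strand) encodes the adaptor on which cGAMP acts, and it had the largest fitted decrease of the 9 genes, with an interval that overlapped that of Ifi204. Its WT levels were 23.76, 20.77, 13.88, 21.29 and 23.04 FPKM. In cKO 1 to 5 they were 2.79, 1.21, 5.11, 0.68 and 7.08 FPKM, so the groups were apart while the cKO libraries differed widely among themselves. The mean was 6.09 times as high in WT (20.5 ± 3.92 against 3.37 ± 2.69 FPKM, SD, n = 5 each), with a log2 fold change of -2.99 (SE 0.533, 95% interval -4.16 to -1.81, adjusted p = 0.00109). On the FPKM scale, which is per length, the level of Sting1 was above that of Cgas in all 5 WT libraries and below it in all 5 cKO libraries.

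**Figure D1:**
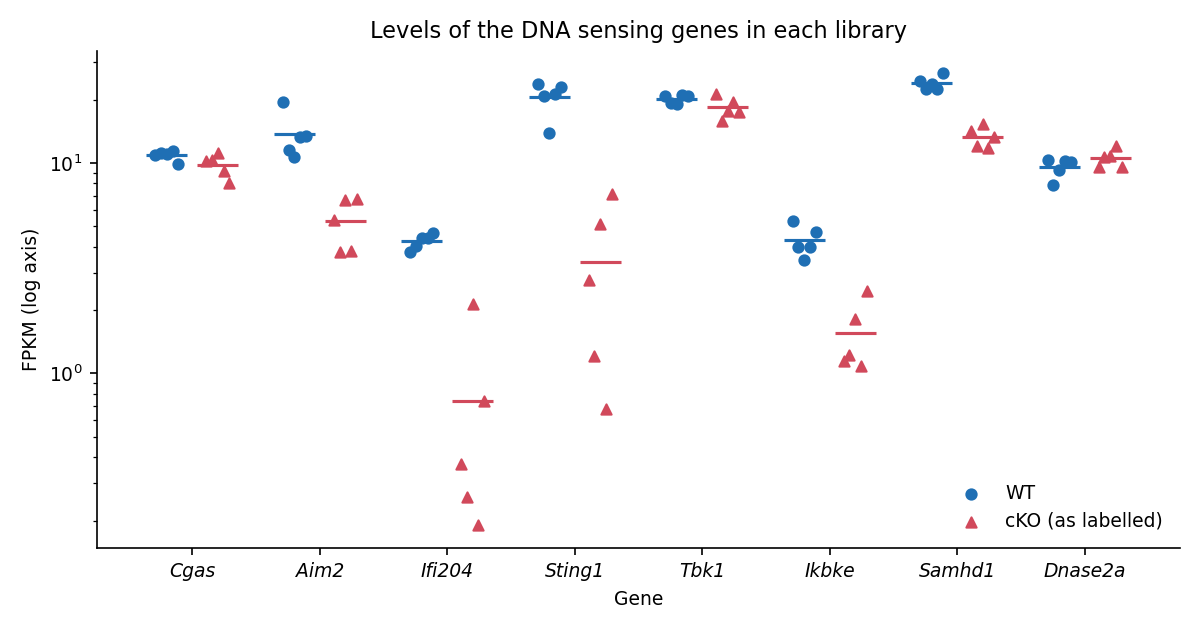
FPKM of 8 genes (vertical, log axis) in each of 5 WT libraries (circles) and 5 libraries labelled cKO (triangles); points run from library 1 to 5 and bars are group means. Sting1, Ifi204, Ikbke, Aim2 and Samhd1 show no overlap between groups, and Sting1 ran from 0.68 to 7.08 FPKM within cKO; Trex1, at 0 in all 10 libraries, is not drawn.

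Of the kinases, Tbk1 (chromosome 10, 121382360 to 121422848, minus strand), the main kinase of STING signaling, was at 20.82, 19.26, 18.99, 20.94 and 20.69 FPKM in WT. In cKO it was at 21.34, 15.83, 17.7, 19.49 and 17.5 FPKM, with cKO 1 the highest of all 10 libraries and cKO 2 the lowest. The log2 fold change was -0.14 (95% interval -0.32 to 0.04, adjusted p = 0.197; exact permutation p = 0.135), and the groups overlapped.

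Ikbke (chromosome 1, 131182080 to 131207346, minus strand), whose product IKKε can phosphorylate the same transcription factors, was at 5.3, 3.98, 3.44, 3.99 and 4.7 FPKM in WT. It was at 1.14, 1.22, 1.82, 1.09 and 2.47 FPKM in cKO, below WT in each library. The log2 fold change was -1.46 (SE 0.229, adjusted p = 5.20e-04), and the mean was 2.77 times as high in WT. The level of Tbk1 in FPKM was above that of Ikbke in all 10 libraries.

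Among the enzymes that dispose of DNA or its precursors, Samhd1 (chromosome 2, 156939453 to 156977187, minus strand) encodes a hydrolase that breaks down deoxynucleotides. It was at 24.46, 22.49, 23.83, 22.43 and 26.63 FPKM in WT and at 14.17, 11.97, 15.22, 11.73 and 13.28 FPKM in cKO. The groups were far apart relative to their spread. The log2 fold change was -0.85 (SE 0.0865, 95% interval -1.04 to -0.66, adjusted p = 7.42e-05), the smallest adjusted p of the members, but the change was 1.81-fold in means and stayed under the 2-fold rule.

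Dnase2a (chromosome 8, 85635189 to 85649544, plus strand) encodes the lysosomal nuclease DNase II, which digests engulfed DNA. It was at 10.27, 7.84, 9.27, 10.21 and 10.12 FPKM in WT and at 9.52, 10.63, 10.74, 12.02 and 9.56 FPKM in cKO. Here the groups overlapped, with 3 cKO libraries above all WT libraries. The log2 fold change was 0.14 (95% interval -0.08 to 0.36, adjusted p = 0.288; exact permutation p = 0.222). Of its exonic bases, 33.7% also lie in the antisense gene Mast1, where reads of the 2 genes cannot be told apart.

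Trex1 (chromosome 9, 108887001 to 108888802, minus strand) encodes the main exonuclease for cytosolic DNA, and it was listed at 0 FPKM in all 10 libraries. All 1147 of its exonic bases lie in exons of Atrip on the same strand, and Atrip was at 4.57 to 5.17 FPKM in WT and 3.47 to 4.57 FPKM in cKO. Across protein-coding genes, 87 of the 144 whose exonic bases were all shared in this way were listed at 0 in every library (60.4%), against 22.9% of the 21483 others. The 0 of Trex1 is therefore given as listed and not as absence of the transcript, and no comparison was made.

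**Figure D2:**
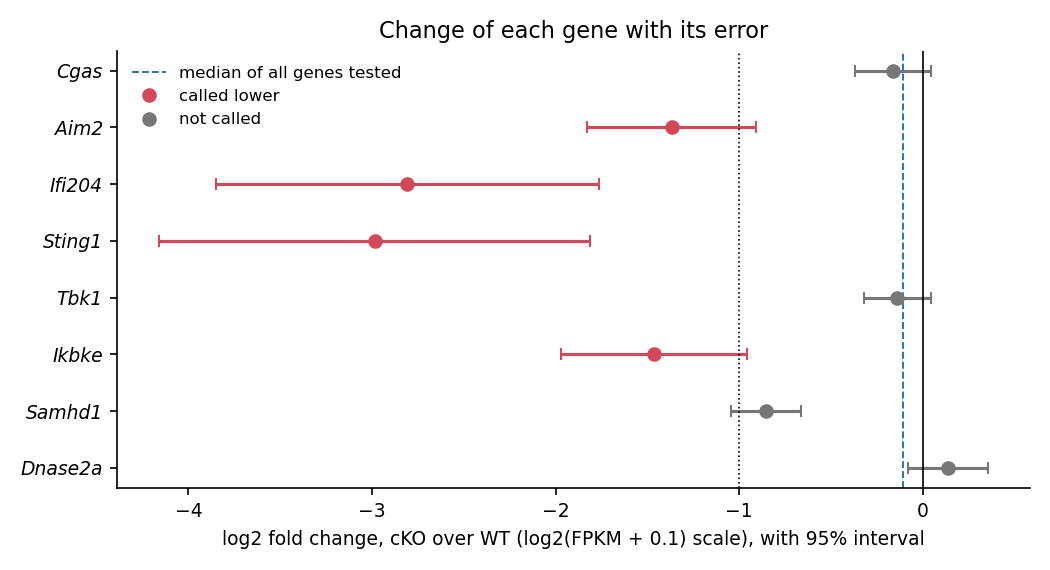
Log2 fold change of cKO over WT on the log2(FPKM + 0.1) scale (horizontal) with 95% intervals for the 8 genes that passed the filter (vertical); the dotted line marks a 2-fold decrease and the dashed line the median of all genes tested, -0.11. The intervals of Sting1 (-4.16 to -1.81) and Ifi204 (-3.85 to -1.77) lie beyond the dotted line, and those of Cgas, Tbk1 and Dnase2a include 0.

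The order of the levels changed between groups. In WT, mean FPKM levels ran from Samhd1 (23.97 FPKM) through Sting1 (20.5), Tbk1 (20.1), Aim2 (13.7), Cgas (10.9) and Dnase2a (9.54) to Ikbke (4.28) and Ifi204 (4.26 FPKM). Neighbours in that order overlapped in range except Dnase2a and Ikbke, and Aim2 reached the range of Tbk1 only in WT 1. In cKO the order was Tbk1 (18.4 FPKM), Samhd1 (13.3), Dnase2a (10.5), Cgas (9.79), Aim2 (5.28), Sting1 (3.37), Ikbke (1.55) and Ifi204 (0.738 FPKM). There, the ranges of Tbk1 and Samhd1 were apart, as were those of Cgas and Aim2, and the other neighbours overlapped.

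The 5 libraries labelled cKO were not alike in these genes, and their order recurred. From high to low, Sting1 ran cKO 5, 3, 1, 2 and 4. The summed level of the 15 monocyte and macrophage markers had the same order, at 339.15, 205.81, 90.63, 22.6 and 9.48 FPKM, against 1083.68 to 1881.06 FPKM in WT. Not every marker in this sum did. Lyz2, at 2.09 to 124.82 FPKM in cKO, had that order, but Cybb ran cKO 1, 5, 3, 2 and 4. Fcgr1 ran cKO 3, 5, 1, 2 and 4. Aim2 ran cKO 5, 3, 1, 4 and 2, as did the summed dendritic cell markers, which were at 39.9 to 96.33 FPKM in cKO and 200.77 to 291.99 FPKM in WT. Most of that sum was Cst3 alone, at 36.07 to 80.93 FPKM in cKO and in the same order. Other genes of that list ran otherwise, Irf8 as cKO 5, 3, 2, 1 and 4 and Clec9a as cKO 3, 5, 4, 1 and 2. Other lists had other orders, such as the neutrophil sum (cKO 1, 5, 3, 2 and 4). Ifi204 ran cKO 3, 5, 1, 2 and 4, the order of the summed B lymphoid markers (0.94 to 7.88 FPKM in cKO, 12.93 to 17.97 FPKM in WT). In that sum cKO 3 and cKO 5 were close, at 7.88 and 7.61 FPKM. Cd79b, a B lymphoid marker at 0.45 to 3.91 FPKM in cKO, ran cKO 5, 3, 1, 4 and 2 instead. Samhd1 was highest in cKO 3 and lowest in cKO 4. By contrast, Dnase2a was highest in cKO 4, the library with the lowest Sting1, Ifi204, Ikbke and Samhd1. With 5 libraries and shared cells and depth, these orders are a description, and the part of the marker genes in the lower levels was not tested.

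**Figure D3:**
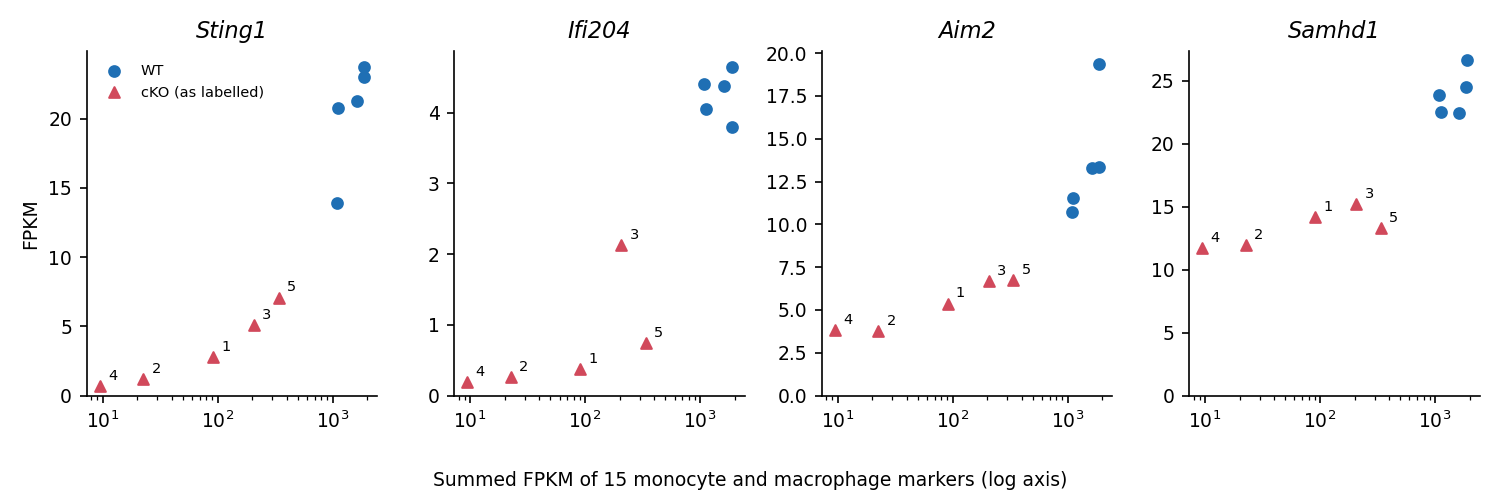
FPKM of Sting1, Ifi204, Aim2 and Samhd1 (vertical, linear from 0) against the summed FPKM of 15 monocyte and macrophage markers (horizontal, log axis), 1 point per library, circles for WT and numbered triangles for cKO. In cKO, Sting1 rose with the marker sum from 0.68 FPKM in cKO 4 to 7.08 FPKM in cKO 5, while Ifi204 was highest in cKO 3 (2.13 FPKM).

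The genes with the profiles most like each member over the 10 libraries differed from member to member. Likeness was the mean absolute difference between centred log2 profiles, over 12327 genes. Sting1 was most like Cfp, which encodes the complement regulator properdin made by myeloid cells (0.0738), and then Pik3r5 (0.124), a regulatory subunit of PI3Kγ. Cfp was at 28.02 to 40.56 FPKM in WT and 1.16 to 12.19 FPKM in cKO. Aim2 was most like Acox3 (0.0980) and Zfp873 (0.103), and Ikbke was most like Elmo2 and Plod3 (both 0.104). Ifi204 was least closely matched, with H2-Q7 (0.238), a nonclassical MHC class I gene, and Trim30d (0.244). Samhd1 was most like Plekha5 (0.0538) and Snx8 (0.0699). Among the members whose groups overlapped, Cgas was most like Chpf2 (0.0368) and Asb7 (0.0605), Tbk1 most like Nsd3 (0.0403) and Stag2 (0.0460), and Dnase2a most like Coq8b (0.0513) and Fbxo38 (0.0679).

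The rest of the pathway was read through 94 other genes in 7 lists, of which 87 passed the filter. Of these, 21 were called lower and 1 higher, beside 16.8% and 4.6% of all genes tested, and their median log2 fold change was -0.37, beside -0.11. Among the AIM2-like receptors 7 of 9 were lower and in the AIM2 inflammasome 5 of 6, and the other 5 lists held 9 of the 21.

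The AIM2-like receptors are the PYHIN genes, which encode proteins with a pyrin and a DNA-binding HIN domain and lie side by side with Aim2 and Ifi204 on chromosome 1. Their median log2 fold change was -2.43. Ifi209 showed the largest change, from 27.15 to 45.64 FPKM in WT to 0.51, 0.3, 5.43, 0.13 and 7.15 FPKM in cKO 1 to 5 (log2 fold change -5.01, adjusted p = 0.00103). It was followed by Ifi211 (-3.67, adjusted p = 0.00341), Ifi203 (-3.58, adjusted p = 6.41e-04) and Ifi207 (-2.97, adjusted p = 0.00235). In each of these 4, all cKO libraries lay below all WT libraries. Ifi209, the most changed, lacked the interferon response element core in its window, as did Aim2, and Ifi208, which held it, was under the filter at 0 to 0.12 FPKM. Members of the cluster that were not called included the pseudogene Ifi203-ps, at 0.48 to 0.71 FPKM in WT and 0.43 to 0.81 FPKM in cKO (log2 fold change 0.02, adjusted p = 0.946), and Ifi206 (log2 fold change -1.08, 95% interval -2.19 to 0.02).

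**Figure D4:**
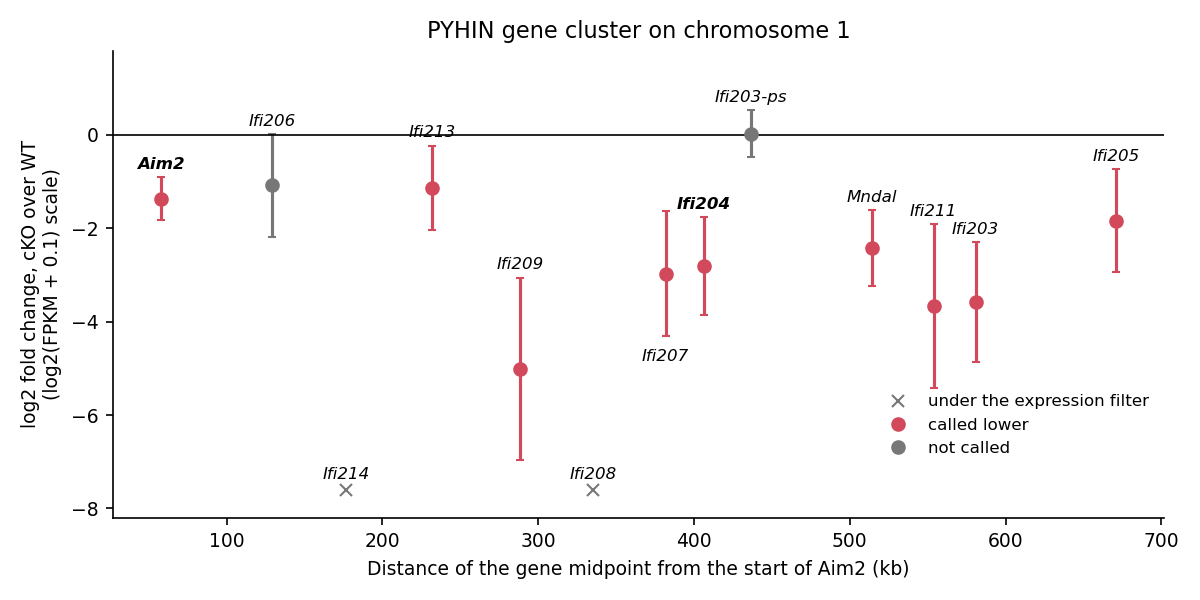
Log2 fold change of cKO over WT (vertical, log2(FPKM + 0.1) scale) with 95% intervals for the PYHIN genes, placed by the distance in kb of each gene's midpoint from the start of Aim2 (horizontal); crosses at the foot mark 2 genes under the filter, which have no value. Aim2 (-1.37) lies at the left end and Ifi204 (-2.81) in the middle; Ifi209 (-5.01) is lowest and Ifi203-ps (0.02) lies at 0.

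The AIM2 inflammasome moved in the same direction as Aim2 in 5 of its 6 genes, with a median of -1.74. Casp1, the protease that matures IL-1β and IL-18, was at 10.31 to 15.01 FPKM in WT and 0.7 to 3.53 FPKM in cKO (log2 fold change -2.68, adjusted p = 2.08e-04). Pycard, which encodes the adaptor ASC, was at 6.47 to 10.05 FPKM in WT and 0.83 to 2.53 FPKM in cKO (-2.37, adjusted p = 1.05e-04). Il18 (-1.78, adjusted p = 0.0131) and Gsdmd, which encodes the pore protein of pyroptosis (-1.70, adjusted p = 4.96e-05), were lower as well. The fifth was Casp8 (-1.24, adjusted p = 5.99e-05), an apoptotic caspase that ASC can also recruit. Il1b was the single pathway gene called higher, at 0.38 to 0.84 FPKM in WT and 0.66 to 2.35 FPKM in cKO (1.20, adjusted p = 0.0216), and its groups overlapped. Casp8 and Il1b were named after their values were seen. The Il1b call was lost with a pseudocount of 1, with an Xist term, with WT 3 to 5 left out, and without WT 1, cKO 2, cKO 3 or cKO 4, each giving 0 genes called higher.

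The other sensors and cofactors, which include Hmgb1 and the DNA-PK subunits, had a median log2 fold change of 0.01, and 2 of 13 were lower, a share near the 16.8% of all genes. These were Zbp1, a sensor of Z-form nucleic acid, with overlapping groups (0.04 to 2.47 FPKM in cKO, 1.09 to 2.72 FPKM in WT; -2.05, adjusted p = 0.0309), and Lrrfip1, a nucleic acid binding protein (-1.57, adjusted p = 1.84e-04). Of 20 genes of STING traffic, regulation and cGAMP turnover, 8 were lower and 3 higher by adjusted p alone. Among all genes, 28.3% were lower and 3138 of 18742 higher by that rule. The list median was -0.26. By the call rule 3 were lower, again a share near the 16.8% of all genes. They were Nlrx1, a mitochondrial protein that restrains STING (-1.69, adjusted p = 2.50e-04), Npc1, a lysosomal cholesterol transporter (means of 4.55 FPKM in WT and 2.22 FPKM in cKO, adjusted p = 2.14e-04), and Enpp3, named after its values were seen, an ectoenzyme with a mean under 1 FPKM.

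Downstream of STING, 1 of 14 kinase adaptors and transcription factors was lower, also a smaller share than the 16.8% of all genes, and the list median was 0.13. That gene was Tbkbp1, which encodes a scaffold of TBK1 and IKKε. It was at 3.6 to 5.44 FPKM in WT and 0.24 to 1.5 FPKM in cKO (log2 fold change -2.41, adjusted p = 5.97e-04). Its order in the cKO libraries was that of Ikbke, cKO 5, 3, 2, 1 and 4. By adjusted p alone, 3 of the 14 were lower and 2 higher, beside 28.3% of all genes lower and 3138 of 18742 higher. Irf3, the factor that STING signaling activates, was 1 of the 3 (adjusted p = 0.0164) and stayed under the 2-fold rule. It had means of 18.0 FPKM in WT and 13.4 FPKM in cKO. Its groups overlapped, at 15.8 to 20.92 FPKM in WT and 10.45 to 16.06 FPKM in cKO. Irf3 was named after its values were seen.

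Of 18 other nucleases, 8 were lower and 2 higher by adjusted p alone, beside 28.3% of all genes lower and 3138 of 18742 higher. The list median was -0.52, beside -0.11 for all genes. By the call rule 1 was lower, fewer by share than among all genes. Pld4, an exonuclease of endolysosomes that degrades single-stranded DNA, was at 21.36 to 37.1 FPKM in WT and at 0.96, 0.47, 4.19, 0.25 and 6.51 FPKM in cKO (log2 fold change -4.32, adjusted p = 7.54e-04). Its cKO order was that of Sting1. Trex2 was listed at 0 in all libraries although it shares no exonic base with another gene.

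At the output end of the pathway, Ifnb1, Ifna4 and Ifna2 were listed at 0 in all 10 libraries. Of the 7 output genes that passed the filter, 2 were lower and 0 were higher, beside 16.8% and 4.6% of all genes, with a median of -0.96. Those lower were the chemokine Ccl5 (-2.36, adjusted p = 3.59e-04) and Il6 (-1.87, adjusted p = 0.00112). In both, all cKO libraries lay below all WT libraries, as in 21.6% of all genes. Isg15, an early interferon-induced gene named after its values were seen, was not called (adjusted p = 0.465). It split the cKO libraries instead, at 36.18 and 69.13 FPKM in cKO 1 and 3 and 3.22 to 6.04 FPKM in cKO 2, 4 and 5, against 2.48 to 13.07 FPKM in WT. Irf7, Usp18 and Ifit1, also named after their values were seen and not called, were split alike. They were at 27.34 and 14.26, 8.78 and 8.26, and 4.33 and 5.09 FPKM in cKO 1 and 3. In cKO 2, 4 and 5 they were at 1.95 to 2.63, 0.91 to 1.67 and 0.1 to 0.5 FPKM. Cxcl10, at 0.03 to 0.5 FPKM in cKO, was not split in this way. Among the cKO libraries, Isg15, Cgas, Ifi204 and Samhd1 were highest in cKO 3, whereas Sting1, Aim2 and Ikbke were highest in cKO 5.

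**Figure D5:**
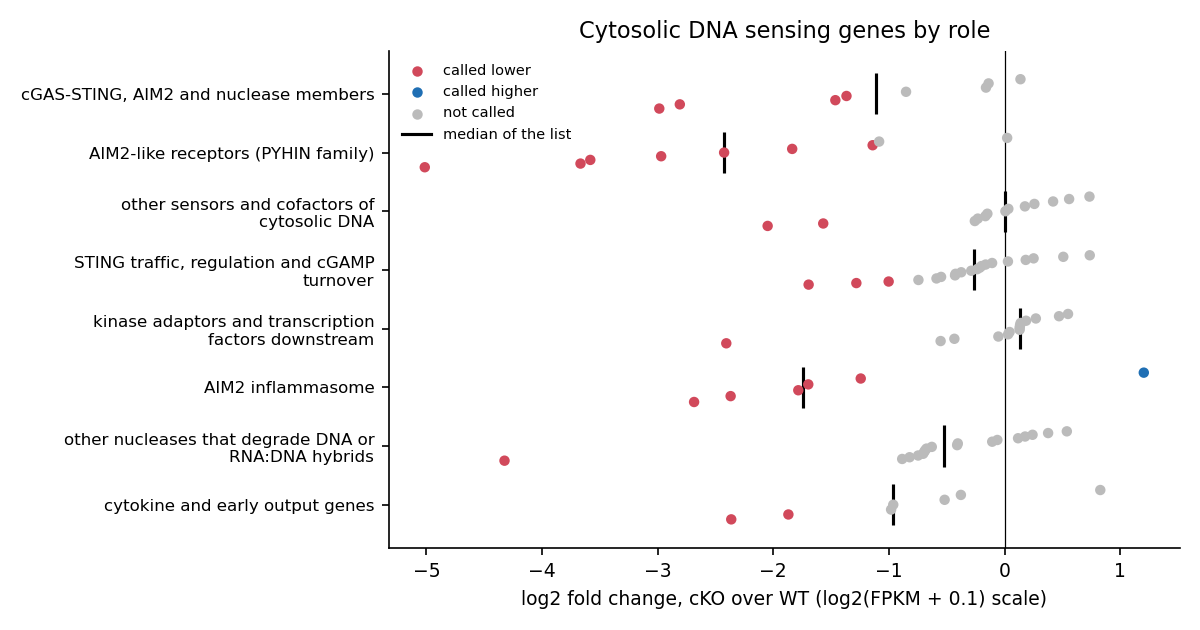
Log2 fold change of cKO over WT (horizontal, log2(FPKM + 0.1) scale) for the 8 members and the 87 other genes that passed the filter, by list (vertical); vertical bars are list medians and colours mark the calls. The PYHIN list (median -2.43) and the AIM2 inflammasome (-1.74) lie lowest, and the other sensors (0.01) and kinase adaptors and transcription factors (0.13) lie near 0.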

How the data were processed

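RNA-seq of Lin- bone marrow cells from 5 WT and 5 cKO samples was used. The deposited gene table holds FPKM values, fragments scaled by gene length and by library total, which the authors computed; the submitters' processing notes name cutadapt 1.9.1, HISAT2 2.0.1 and HTSeq 0.6.1 without their roles, and the build GRCm39. The annotation, the gene lengths and the use of strand are not given in the sources used here. Depth was recovered from values of up to 20 fragments over GENCODE vM39 exon lengths, of which 95.4% to 95.9% came out whole within 0.2 fragments, so fragment numbers are estimates.

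The 18742 genes that averaged 0.1 FPKM or more entered a two-sided test with limma 3.58.1 (R 4.3.3; lmFit, eBayes with a trend) on log2(FPKM + 0.1), with Benjamini-Hochberg adjustment over all genes tested. A call needed an adjusted p under 0.05 together with a 2-fold change or more. Fold changes on this scale understate changes of low genes. Values were also compared gene by gene with an exact permutation test (252 splits, Python 3.11.15). The code was tested on simulated data with the same spread in both groups. Sting1 and Ifi204 spread more widely in cKO than in WT, a setting that the simulation did not cover. The study counts replicates as individual mice in general, but the labels name no animal for these libraries, so p-values measure the spread between these samples; no 2 libraries were within sampling noise of each other.

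The members and lists were chosen with earlier results of these data known. Named genes were Dhx9, all members, Xist, up to 4 called genes per pathway list with the largest change and a mean of at least 1 FPKM, and the 2 genes most like each member in profile; exceptions are marked. Alternatives were other pseudocounts, filters, scalings, a replicate block, an Xist term and leaving out libraries. Of 99 pathway names written, 94 distinct genes were found. One planned promoter motif is not reported here.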

Additional observations from a re-analysis of the deposited data

Results flagged for a closer look

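In the 50 groups of 5 libraries checked for a value far from the rest (members, Dhx9 and named pathway genes in WT and in cKO), 2 stood out, and chance gives about 1 in 20, or 2.5. Both were in cKO 3. Ifi204 was at 2.13 FPKM there and at 0.19 to 0.74 FPKM in the other cKO libraries. Zbp1 was at 2.47 FPKM there and at 0.04 to 0.59 FPKM in the others. That library also had the highest Isg15, at 69.13 FPKM. Whether these values share a source was not tested.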

How the results depend on the processing

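In the 22 alternatives tried, 4 members were called lower in each, except for 5 with adjusted p alone, where Samhd1 passed (-0.85), and 0 were called higher; no member changed direction. Leaving out 1 library at a time gave log2 fold changes of -3.36 to -2.56 for Sting1, -3.27 to -2.53 for Ifi204, -1.64 to -1.36 for Ikbke and -1.47 to -1.23 for Aim2. Ifi204 moved furthest, to -1.69 with a pseudocount of 1. With WT 3 to 5 left out, the log2 fold changes were -3.12 for Sting1 and -2.70 for Ifi204. Pathway genes called lower numbered 21, with 36 by adjusted p alone, 16 with the Xist term, 15 with a pseudocount of 1 and 14 with WT 3 to 5 left out, and pathway genes called higher numbered 12 by adjusted p alone. The single higher gene, Il1b, was lost (0 called) with a pseudocount of 1, with the Xist term, with WT 3 to 5 left out, and without WT 1, cKO 2, cKO 3 or cKO 4 (leave-one-out range 0 to 1); the cause was not tested.

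Over all genes, 862 were called higher and 3153 lower. The counts were 356 and 1486 with a pseudocount of 1, 3138 and 5300 with adjusted p alone, and 462 and 1827 among the 12353 genes that averaged 1 FPKM or more. With the Xist-positive libraries left out they were 536 and 2261. Quantile normalization gave 1581 and 2245, raised the share of higher calls from 21.5% to 41.3%, and moved the median log2 fold change from -0.11 to 0.10. The log2 fold changes of Sting1 and Ikbke were then -2.75 and -1.02.

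Same-numbered WT and cKO libraries deviated from their group means with correlations of -0.0767 to 0.193 across genes, 3 of them under 0.1, so the numbers were taken as names. With a replicate block, the counts were 857 and 3107, 4 members and 21 pathway genes were called lower, and 3 of 5 WT libraries correlated best with their own number. The block changed no member's call. Depth limits Ifi204 most, at 10 to 43 fragments in cKO 1, 2, 4 and 5.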
